A study of Homo sapiens with 6 samples.

Results

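The genes described here belong to the plasminogen activation and tissue factor system: PLAT, PLAU, PLAUR, SERPINE2, SERPINB2, F3, TFPI, TFPI2 and THBD. They were chosen by name and from the log2 differences between knockdown and control arrays, which were already known, and comprise every probe set that the platform annotation pairs with exactly 1 gene symbol from this list. Of the 9 genes, 8 were measured, by 32 probe sets out of 49293 and as 8 of 18132 genes. The expression of SERPINB2 is not analysed here, and only its promoter was searched. The study knocked down PCGF1, a Polycomb group RING finger protein, in U87 cells, an established human glioma line grown in DMEM with fetal bovine serum, and asked which genes differ from negative control cells. Knockdown cells carried a lentiviral short hairpin RNA that targets PCGF1 (PCGF1-shRNA, 3 Affymetrix arrays), and control cells received a negative control lentivirus (NC, 3 arrays). Both groups share the cell line, the lentiviral delivery and the medium. Sample names add T0 to every PCGF1-shRNA array and T1 to every NC array without explanation, so what these stand for and the knockdown cannot be told apart, and the labels call the arrays of each group biological replicates without saying whether they came from separate cultures or clones. The p-values below measure only the spread between these arrays, which may be partly technical.

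Tissue-type plasminogen activator (PLAT) and urokinase (PLAU) are serine proteases that cut plasminogen into plasmin, a protease that dissolves fibrin and degrades extracellular matrix. Urokinase works at the cell surface on its receptor, PLAUR, and serpins such as SERPINE2 and SERPINB2 trap the activators. Tissue factor (F3) binds factor VIIa and starts blood coagulation, TFPI blocks that step, its relative TFPI2 mainly inhibits plasmin and trypsin-like proteases, and thrombomodulin (THBD) turns thrombin from a clotting enzyme into an activator of protein C. Glioma cells are known to use urokinase and its receptor in invasion and to expose tissue factor.

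The promoters of 5 genes are shown as examples, chosen with the differences between the groups known. AP-1 letters occurred in those of F3, TFPI2 and PLAUR and not in those of PLAU and TFPI. Bases further from the start were not searched, and PLAT and THBD had no promoter to search. Whether the letters bear on the differences between the groups was not tested. Sequences are from RefSeq, build GRCh38.p14. The build behind the array design is not given in the sources used here. Each line holds the 250 bases before an annotated start, 5′ to 3′ on the strand of the gene, and capitals mark TGANTCA, the letters of an AP-1 site, and GGGCGG, the GC box bound by SP1, on either strand.
F3, chr1:94541760-94542009, minus strand: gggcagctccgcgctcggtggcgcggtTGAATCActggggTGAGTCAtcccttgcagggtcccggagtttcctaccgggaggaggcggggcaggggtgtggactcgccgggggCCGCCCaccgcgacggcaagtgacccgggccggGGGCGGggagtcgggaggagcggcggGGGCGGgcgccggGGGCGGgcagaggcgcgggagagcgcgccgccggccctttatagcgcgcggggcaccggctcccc
TFPI2, chr7:93890754-93891003, minus strand: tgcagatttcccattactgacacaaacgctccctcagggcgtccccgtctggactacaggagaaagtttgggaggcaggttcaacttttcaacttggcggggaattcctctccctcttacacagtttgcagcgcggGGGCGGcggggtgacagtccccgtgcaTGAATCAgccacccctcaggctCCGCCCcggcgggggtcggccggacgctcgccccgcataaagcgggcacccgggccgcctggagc
PLAUR, chr19:43670170-43670419, minus strand: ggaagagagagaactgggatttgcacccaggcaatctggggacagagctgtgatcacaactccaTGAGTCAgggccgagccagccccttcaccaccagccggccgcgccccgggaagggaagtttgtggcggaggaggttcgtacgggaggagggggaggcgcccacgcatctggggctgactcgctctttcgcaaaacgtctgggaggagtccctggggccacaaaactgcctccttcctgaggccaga
PLAU, chr10:73910882-73911131, plus strand: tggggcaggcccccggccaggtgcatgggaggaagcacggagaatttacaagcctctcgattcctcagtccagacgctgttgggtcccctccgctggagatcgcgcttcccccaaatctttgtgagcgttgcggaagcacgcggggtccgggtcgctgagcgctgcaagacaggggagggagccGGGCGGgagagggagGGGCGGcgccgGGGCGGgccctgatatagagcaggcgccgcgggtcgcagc
TFPI, chr2:187554436-187554685, minus strand: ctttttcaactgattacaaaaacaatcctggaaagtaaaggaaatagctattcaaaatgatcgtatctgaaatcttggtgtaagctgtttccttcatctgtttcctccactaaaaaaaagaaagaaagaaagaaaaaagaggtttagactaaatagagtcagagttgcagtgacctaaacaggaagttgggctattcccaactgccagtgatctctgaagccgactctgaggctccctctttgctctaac

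The F3 promoter held 2 AP-1 matches, 223 and 210 bases before the start, and 4 GC boxes between 137 and 65 bases before it. In the TFPI2 promoter 1 AP-1 match lay 87 bases before the start, between GC boxes at 114 and 65 bases. PLAUR had 1 AP-1 match at 186 bases and no GC box, PLAU had GC boxes at 66, 51 and 40 bases, and TFPI had neither. Matched by symbol, 7 of the 9 genes had 9 windows of 300 bases (250 before and 50 after a start), since PLAU and SERPINE2 have 2 each. THBD and PLAT had none. The AP-1 letters occurred in 4 of these 9 windows, those of F3, TFPI2, PLAUR and SERPINB2, and in 7.71% of all 35116 windows in the table. GC boxes occurred in 5 of the 9 windows and in 45.0% of all windows. The TATA letters TATAAA were in the windows of F3 and SERPINB2 and in 11.5% of all, and CCAAT was in the first windows of SERPINE2 and PLAU and in 34.6% of all. Both strands were searched, and none of these motifs shares bases with another in the printed promoters. A match of letters is a description of the sequence and not a measured binding site.

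**Figure D1:**
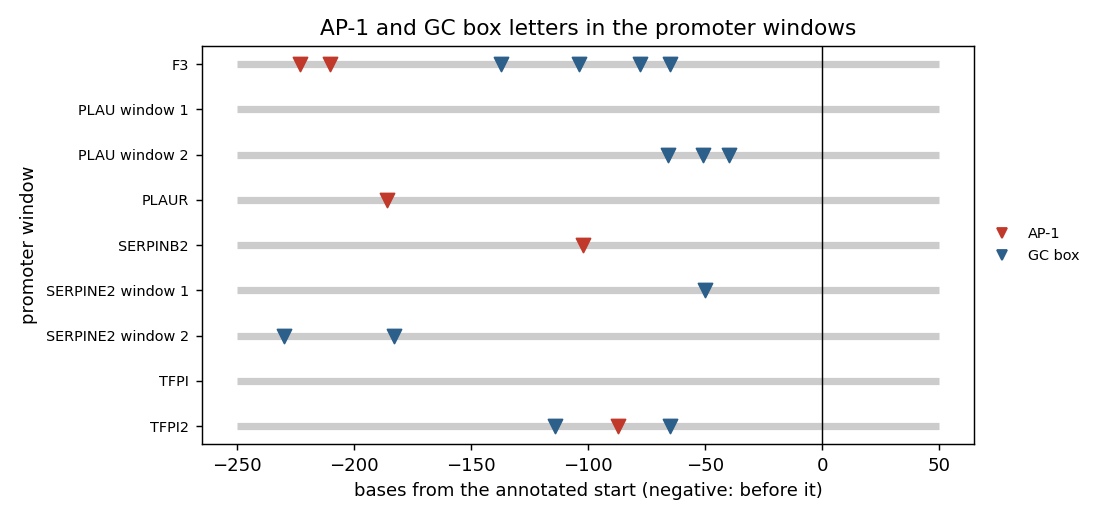
Positions of AP-1 and GC box letters (triangles, either strand) in the 9 promoter windows, each drawn as a grey bar from 250 bases before to 50 bases after the annotated start, with distance from the start in bases on the horizontal axis. AP-1 triangles stand in the windows of F3, PLAUR, SERPINB2 and TFPI2, and every triangle lies before the start.

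Every value is a log2 signal set against the 6-array median of its probe set. Such values show how arrays differ for a gene, not how strongly the gene is expressed, so the levels of these genes cannot be ordered and the cell type of the line cannot be checked by the presence of its markers. PCGF1 itself, measured by 1 probe set, was at 74.3% of the NC level in the PCGF1-shRNA arrays, with a log2 fold change of -0.43 ± 0.06 (SE, limma adjusted p = 0.0041). Its means were -0.20 ± 0.07 in PCGF1-shRNA and 0.23 ± 0.09 in NC arrays (SD, n = 3 each), and the two-sided exact permutation test gave p = 0.1, the smallest that 3 against 3 arrays allow. Of all 18132 genes 1154 were higher and 840 lower at an adjusted p under 0.05.

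The proteases that activate plasminogen had higher signals in the PCGF1-shRNA arrays, their cell surface receptor differed little, and the serpin SERPINE2 was higher too. Tissue factor, TFPI2 and thrombomodulin were lower, with TFPI2 showing the largest difference of the 8 genes. The genes were chosen by these differences, which are therefore given as a description, and whether a gene passed in the fit across all genes is no independent support. In that fit 6 of the 8 passed an adjusted p of 0.05, 3 higher (PLAT, PLAU, SERPINE2) and 3 lower (F3, TFPI2, THBD), while 11.0% of all genes passed, 6.36% higher and 4.63% lower. SERPINE2 did not pass without PCGF1-shRNA replicate 1 or NC replicate 1 or 3 (adjusted p 0.053 to 0.0545), with its most variable probe set (log2 difference 0.23, adjusted p = 0.0763) or in the fit with a replicate block (adjusted p = 0.0587). The values of the 2 groups did not overlap for 4 genes that were higher and 3 that were lower, against 17.1% and 15.5% of all genes and 32.7% in either direction. The median log2 difference over the 8 genes was 0.048, against -0.008 over all genes, and the median absolute difference was 0.32 over the 8 genes against 0.07 over all genes. Because the genes were chosen with these differences in view, nothing is read from those shares.

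**Figure D2:**
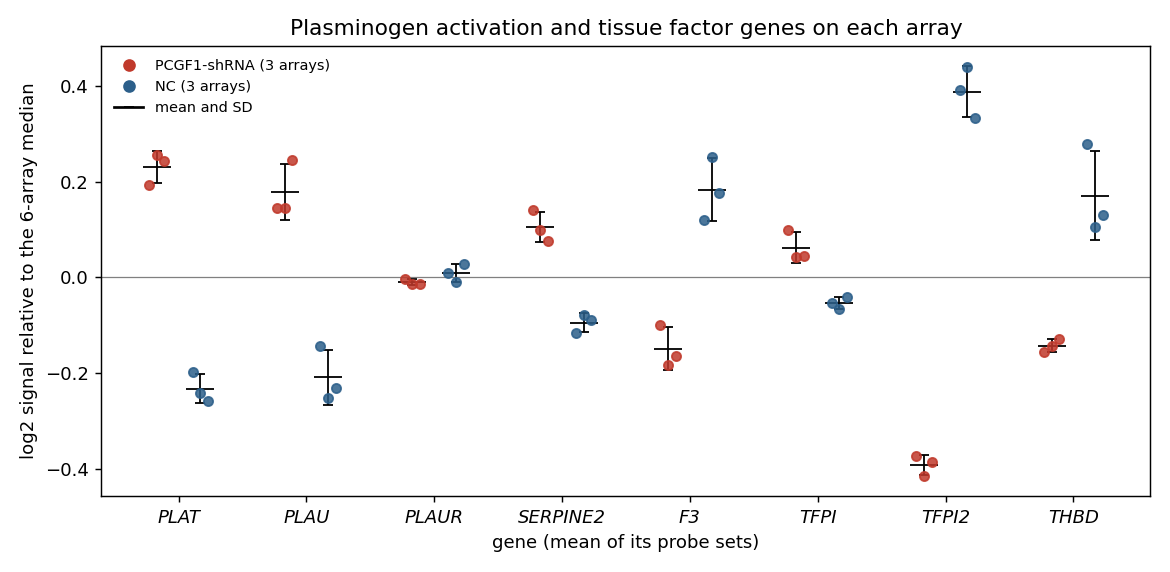
Log2 signal relative to the 6-array median (vertical axis) of each measured gene, averaged over its probe sets, on the 3 PCGF1-shRNA arrays (red, left of each pair) and the 3 NC arrays (blue, right), with the mean and SD in black. Red points lie above all blue points for PLAT, PLAU, SERPINE2 and TFPI and below them for F3, TFPI2 and THBD, and the points of PLAUR overlap.

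PLAT, whose product is best known for clearing fibrin and is also made in the brain, was at 0.19, 0.26 and 0.24 in PCGF1-shRNA replicates 1 to 3, against -0.20, -0.24 and -0.26 in the NC replicates. All knockdown arrays were high and all controls low, with a gap of 0.39 between the nearest arrays of the groups. The means were 0.23 ± 0.03 in PCGF1-shRNA and -0.23 ± 0.03 in NC arrays (SD, n = 3 each), a log2 difference of 0.46, or 138% of the NC level. It was number 78 of 8457 genes with a positive difference. PLAT lies on chromosome 8 and was read by 7 probe sets, all with a positive difference, from 0.07 to 0.64 with a median of 0.56. The lowest probe set was at -0.14, 0.02 and 0.11 in PCGF1-shRNA arrays against 0.03, -0.25 and -0.02 in NC arrays, and it was the only 1 of the 7 in which the groups overlapped. The next lowest differed by 0.38.

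PLAU, on chromosome 10, encodes urokinase, the activator that works at the surface of migrating cells. Its signal was 0.14, 0.14 and 0.24 in PCGF1-shRNA replicates 1 to 3, against -0.14, -0.25 and -0.23 in NC. The groups did not overlap, and the gap was 0.29. PLAU averaged 0.18 ± 0.06 in PCGF1-shRNA and -0.21 ± 0.06 in NC arrays (SD, n = 3 each), a log2 difference of 0.39 or 131% of the NC level. Its 3 probe sets differed by 0.25, 0.42 and 0.49.

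PLAUR, on chromosome 19, encodes the glycolipid-anchored urokinase receptor. It was at -0.003, -0.013 and -0.013 in PCGF1-shRNA arrays against 0.010, -0.009 and 0.027 in NC arrays. These values overlap and lie close together, with SDs of 0.006 in PCGF1-shRNA and 0.018 in NC arrays (n = 3 each). The log2 difference was -0.019 (98.7% of the NC level), and 15.1% of all genes had a smaller absolute difference. Its 5 probe sets lay between -0.08 and 0.01. The groups overlapped in 4 of them, and the fifth was lower in PCGF1-shRNA arrays, at -0.08, -0.002 and -0.04 against 0.08, 0.002 and 0.04 in NC arrays.

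SERPINE2, also called protease nexin 1, inhibits thrombin, urokinase and tissue-type plasminogen activator and is made by glial cells. Its signal was 0.14, 0.10 and 0.08 in PCGF1-shRNA replicates 1 to 3, against -0.12, -0.08 and -0.09 in NC. Every knockdown array was above every control, but the gap of 0.15 was smaller than those of the 2 activators. The means were 0.10 ± 0.03 in PCGF1-shRNA and -0.10 ± 0.02 in NC arrays (SD, n = 3 each), a log2 difference of 0.20 or 115% of the NC level. Its 6 probe sets were close together, with differences from 0.18 to 0.23, and none of them had overlapping groups. The gene lies on chromosome 2.

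F3, tissue factor, is the cell surface receptor of factor VIIa and lies on chromosome 1. Its signal was -0.10, -0.18 and -0.16 in PCGF1-shRNA replicates 1 to 3, against 0.12, 0.25 and 0.18 in NC. All 3 knockdown arrays were low and all 3 controls high, with a gap of 0.22. The means were -0.15 ± 0.04 in PCGF1-shRNA and 0.18 ± 0.07 in NC arrays (SD, n = 3 each), a log2 difference of -0.33 or 79.5% of the NC level. Its 3 probe sets differed by -0.37, -0.33 and -0.29. With the most variable of them in place of the mean the difference was -0.33 with an adjusted p of 0.0728, so F3 was then not among the genes that passed.

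TFPI and TFPI2 both carry Kunitz inhibitor domains, and their signals differed in opposite directions. TFPI, the main inhibitor of tissue factor with factor VIIa, was at 0.10, 0.04 and 0.04 in PCGF1-shRNA arrays against -0.05, -0.07 and -0.04 in NC arrays. The groups did not overlap, with a gap of 0.08. The means of 0.06 ± 0.03 in PCGF1-shRNA and -0.05 ± 0.01 in NC arrays (SD, n = 3 each) gave a log2 difference of 0.12, or 108% of the NC level, which did not pass in the fit across all genes. Its 3 probe sets, on chromosome 2, differed by 0.05, 0.10 and 0.20, and the groups overlapped in the first of these.

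TFPI2, an inhibitor deposited in the extracellular matrix, was at -0.37, -0.42 and -0.39 in PCGF1-shRNA replicates 1 to 3, against 0.39, 0.44 and 0.33 in NC. The gap of 0.71 between the groups was the widest of the 8 genes. The means were -0.39 ± 0.02 in PCGF1-shRNA and 0.39 ± 0.05 in NC arrays (SD, n = 3 each), a log2 difference of -0.78. That is 58.2% of the NC level, or 1.72-fold lower, and it was number 13 of 9675 genes with a negative difference. The gene, on chromosome 7, had 3 probe sets, which differed by -1.01, -0.71 and -0.62. All 3 carry the suffix _s_at or _x_at, which marks probe sets that can match other transcripts as well, so TFPI2 has no value without such probe sets.

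THBD, thrombomodulin, on chromosome 20, was at -0.16, -0.14 and -0.13 in PCGF1-shRNA replicates 1 to 3, against 0.28, 0.10 and 0.13 in NC. The knockdown arrays were low and close together, while NC replicate 1 was well above the other controls. The means were -0.14 ± 0.01 in PCGF1-shRNA and 0.17 ± 0.09 in NC arrays (SD, n = 3 each), a log2 difference of -0.31 or 80.4% of the NC level. Without NC replicate 1 the difference was -0.26. Its 2 probe sets agreed in sign but not in size, one at -0.51 and the other at -0.12. The first was at -0.28, -0.20 and -0.24 in PCGF1-shRNA arrays against 0.41, 0.20 and 0.20 in NC arrays. The second was at -0.03, -0.09 and -0.01 in PCGF1-shRNA arrays against 0.15, 0.01 and 0.06 in NC arrays.

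Over the 32 probe sets of the 8 genes, 20 had a positive and 12 a negative difference. In 17 all PCGF1-shRNA arrays lay above all NC arrays and in 9 below them, against 15.7% and 13.8% of all 49293 probe sets and 29.5% in either direction. Within a gene the signs disagreed for PLAUR alone, where 1 probe set was positive and 4 were negative.

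**Figure D3:**
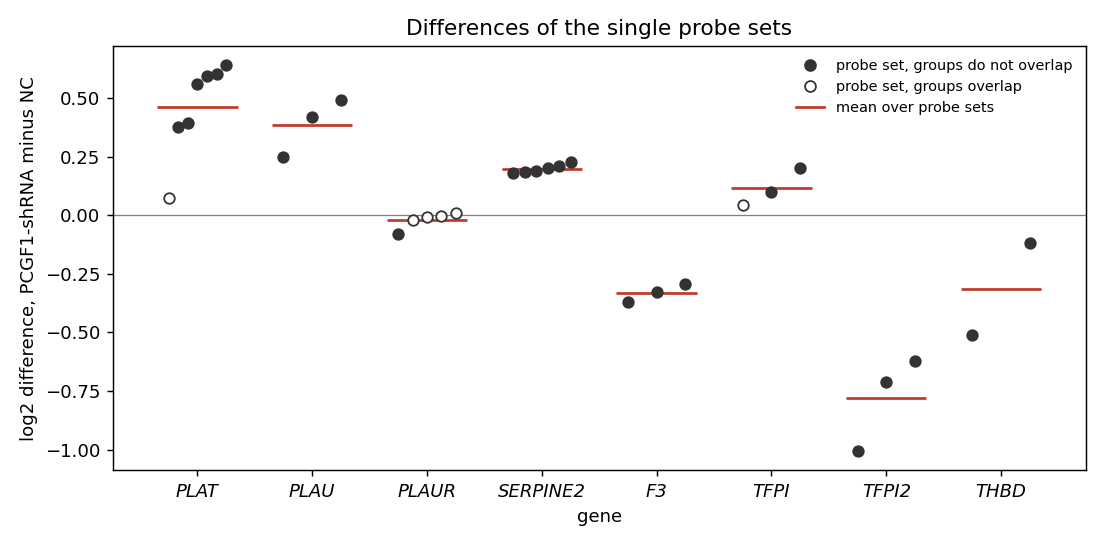
Log2 difference, PCGF1-shRNA minus NC (vertical axis), of every single probe set by gene, as filled circles where the groups do not overlap and open circles where they do, with the mean over a gene's probe sets as a red line. SERPINE2 probe sets span 0.18 to 0.23, while those of PLAT span 0.07 to 0.64, TFPI2 -1.01 to -0.62 and THBD -0.51 to -0.12.

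The genes whose values over the 6 arrays were closest to those of PLAT, by root mean square difference, were MAPK10, a stress-activated kinase (0.0132), TENT5C, a poly(A) polymerase (0.0199), and NRN1, neuritin (0.0269). Their log2 differences were 0.48, 0.45 and 0.45. Closest to TFPI2 were GRB14, a signalling adaptor (0.038), ATF6, a transcription factor of the unfolded protein response (0.0487), and TAGLN3, a transgelin (0.0517), with differences of -0.72, -0.72 and -0.73. Each measure of likeness covers 6 arrays in 2 groups, so it mostly reflects the difference between the groups.

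Other genes of the system were followed in 7 lists of 127 genes, of which 121 were measured. Among these 17 rose and 13 fell by limma at an adjusted p under 0.05, which is 14.0% and 10.7%, and 91 did not pass. Over all genes 6.36% rose and 4.63% fell. Without PCGF1-shRNA replicate 1 or NC replicate 2 only 10 rose, without PCGF1-shRNA replicate 3 or NC replicate 3 it was 11, and without _s_at and _x_at probe sets 11 of 111 rose. The median log2 fold change of the 121 genes was -0.023. The share that passed in either direction ran from 7.14% for protease-activated receptors and their G proteins to 38.9% for the transcription factors. Over all genes it was 11.0%. The lists were chosen with earlier results known, so nothing is read from the shares of single lists. Markers of endothelial cells, leukocytes and platelets, which also express several genes of the system, are given below.

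In the plasminogen list 4 of 23 measured genes rose, 2 fell and 17 did not pass, with a median of 0.007. SERPINI1, neuroserpin, the inhibitor of tissue-type plasminogen activator in neurons, rose by 0.41 ± 0.05 (log2, SE, adjusted p = 0.00312). It was at 0.15, 0.27 and 0.16 in PCGF1-shRNA replicates 1 to 3 against -0.27, -0.15 and -0.23 in NC, and the groups did not overlap. Among endocytic receptors of the LDL receptor family, which clear protease and serpin complexes, LRP8 fell by 0.49 ± 0.05 (adjusted p = 0.00118) and VLDLR rose by 0.30 ± 0.05 (adjusted p = 0.0068). LRP1, the main clearance receptor, had a log2 fold change of 0.18 ± 0.05 that did not pass (adjusted p = 0.0718). LRPAP1, the chaperone of this family, rose by 0.16 ± 0.04 (adjusted p = 0.0448) but did not pass on leaving out any PCGF1-shRNA array or NC replicate 2 or 3 (adjusted p 0.0826 to 0.134). Nor did LRPAP1 pass with its most variable probe set, without _s_at and _x_at probe sets or with a replicate block (adjusted p 0.0758 to 0.123). IGF2R, which binds the urokinase receptor and plasminogen, rose by 0.25 ± 0.04 (adjusted p = 0.00973), and with its most variable probe set it was at 0.23 and did not pass (adjusted p = 0.12). PLGRKT, a plasminogen receptor, fell by 0.30 ± 0.06 (adjusted p = 0.0205), a call lost without PCGF1-shRNA replicate 1 or 3 or NC replicate 2 or 3 (adjusted p 0.0546 to 0.0704). PLG, plasminogen itself, was at -0.07 ± 0.07 and did not pass (adjusted p = 0.579).

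Of 20 coagulation factors and processing genes 2 rose, 1 fell and 17 did not pass, with a median of -0.046. VKORC1, which recycles vitamin K, rose by 0.20 ± 0.04 (SE, adjusted p = 0.0201), a call lost on leaving out any array except PCGF1-shRNA replicate 2 (adjusted p 0.051 to 0.066). It was also lost in the fits with the most variable probe set or a replicate block (adjusted p 0.0816 and 0.0675). GGCX, the vitamin K-dependent carboxylase, rose by 0.17 ± 0.04 (adjusted p = 0.0484), and FGB, the fibrinogen beta chain, fell by 0.16 ± 0.04 (adjusted p = 0.0412). Neither passed in any fit that omitted 1 of the 6 arrays, with adjusted p from 0.0711 to 0.135 for GGCX and from 0.0667 to 0.129 for FGB. Both also missed the threshold in the fits with the most variable probe set or a replicate block (adjusted p 0.0717 to 0.0905). GGCX did not pass without _s_at and _x_at probe sets either (adjusted p = 0.151).

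Of 12 other anticoagulant genes and their relatives 2 rose, 2 fell and 8 did not pass, with a median of 0.003. PROS1, protein S, a cofactor of activated protein C and of TFPI, rose by 0.27 ± 0.04 (SE, adjusted p = 0.00421). Its relative GAS6, a ligand of TAM receptor kinases, rose by 0.44 ± 0.05 (adjusted p = 0.00218), but it has no value without _s_at and _x_at probe sets. PROS1 was at 0.16, 0.13 and 0.13 in PCGF1-shRNA arrays against -0.14, -0.11 and -0.15 in NC arrays, and GAS6 was at 0.26, 0.16 and 0.30 in PCGF1-shRNA arrays against -0.26, -0.20 and -0.16 in NC arrays. In both genes every knockdown array was above every control. SERPIND1, heparin cofactor II, fell by 0.29 ± 0.04 (adjusted p = 0.00318), and without _s_at and _x_at probe sets it was at -0.16 and did not pass (adjusted p = 0.0679). ADTRP, a regulator of TFPI, fell by 0.28 ± 0.04 (adjusted p = 0.00817) as the mean of 2 probe sets, and when probe sets ending in _s_at and _x_at were dropped it stood at 0.03 (log2 fold change, adjusted p = 0.751). PROCR, the endothelial protein C receptor, was at 0.03 ± 0.04 and did not pass (adjusted p = 0.644).

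Among 14 protease-activated receptor and G protein genes 1 rose and 13 did not pass, with a median of 0.048. The gene that rose was F2R, the thrombin receptor PAR1, at 0.29 ± 0.06 (SE, adjusted p = 0.0186). It did not pass without PCGF1-shRNA replicate 3 or NC replicate 1 (adjusted p 0.0519 to 0.0624).

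The list of urokinase receptor partners and relatives had 6 genes that rose, 0 that fell and 12 that did not pass out of 18, with a median of 0.056. LYPD1, a relative of the receptor with the same LY6/PLAUR fold, rose by 0.67 ± 0.04 (SE, adjusted p = 0.000185). It was at 0.37, 0.29 and 0.35 in PCGF1-shRNA replicates 1 to 3 against -0.34, -0.32 and -0.32 in NC, so the groups were far apart. ITGA5, the alpha chain of the fibronectin receptor, rose by 0.31 ± 0.05 (adjusted p = 0.0106), and without _s_at and _x_at probe sets it was at 0.21 and did not pass (adjusted p = 0.0791). PDGFRB, a growth factor receptor that can signal with the urokinase receptor, rose by 0.28 ± 0.06 (adjusted p = 0.0223), a call lost without PCGF1-shRNA replicate 1 or 2 or NC replicate 2 or 3 (adjusted p 0.0598 to 0.0767). FPR1, a formyl peptide receptor, rose by 0.27 ± 0.05 (adjusted p = 0.0116), but without _s_at and _x_at probe sets it was at 0.03 (adjusted p = 0.847). ITGB5 and CAV1 also rose, by 0.23 and 0.16, and lost their calls without single arrays. For ITGB5 these were PCGF1-shRNA replicate 1 and NC replicates 2 and 3 (adjusted p 0.0584 to 0.0676), and for CAV1 any of the 6 (adjusted p 0.06 to 0.127). In the fit with the most variable probe set neither passed (adjusted p = 0.0672 for ITGB5 and 0.095 for CAV1). CAV1 also did not pass without _s_at and _x_at probe sets (adjusted p = 0.0845) or with a replicate block (adjusted p = 0.0865).

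Of 16 other serpins 1 rose, 2 fell and 13 did not pass, with a median of -0.043. SERPINH1, a collagen chaperone of the endoplasmic reticulum that does not inhibit proteases, rose by 0.52 ± 0.05 (SE, adjusted p = 0.000662). Without _s_at and _x_at probe sets SERPINH1 has no value. SERPINB8 and SERPINB7, relatives of SERPINB2, fell by 0.23 ± 0.04 and 0.22 ± 0.04 (adjusted p = 0.00796 and 0.0104), and with its most variable probe set SERPINB7 was at -0.25 and did not pass (adjusted p = 0.0567).

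AP-1, NF-kB, EGR, ETS and SP1 factors, for which sites have been described in promoters of the urokinase system and of tissue factor, had 1 gene that rose, 6 that fell and 11 that did not pass out of 18, with a median of -0.119. ETS2 fell by 0.43 ± 0.04 (SE, adjusted p = 0.000739), EGR1 by 0.40 ± 0.05 (adjusted p = 0.00303) and ETS1 by 0.29 ± 0.05 (adjusted p = 0.0144). ETS1 did not pass without NC replicate 1 or 3 (adjusted p 0.0502 to 0.0543). JUN, a subunit of AP-1, fell by 0.26 ± 0.05 (adjusted p = 0.0102), and without _s_at and _x_at probe sets it was at -0.24 and did not pass (adjusted p = 0.0867). FOSL2, another AP-1 subunit, rose by 0.23 ± 0.05 (adjusted p = 0.0182), a call lost without PCGF1-shRNA replicate 1 or 3 or NC replicate 1 or 2 (adjusted p 0.0604 to 0.0681). The NF-kB subunit genes NFKB1 and RELB fell by 0.22 and 0.19. NFKB1 has 1 probe set, so its values were the same in the fit that kept the most variable probe set per gene. It did not pass there (adjusted p = 0.0542), because moderation and adjustment run over all genes. RELB did not pass on leaving out any PCGF1-shRNA array or NC replicate 2 or 3 (adjusted p 0.0619 to 0.116). Nor did RELB pass in the fits with the most variable probe set, without _s_at and _x_at probe sets or with a replicate block (adjusted p 0.053 to 0.11). Whether these factors bear on the genes described here was not tested.

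Markers of other cells that express parts of this system were examined in the same fit, in which 11.0% of all genes passed. The shares were 0.0% of the endothelial, 9.09% of the leukocyte and 10.0% of the platelet list. Lists this short cannot set such shares apart from that of all genes. None of 12 endothelial markers passed in either direction, although all of their log2 fold changes were negative, from -0.211 to -0.005. Their mean signal lay between -0.059 and -0.009 in PCGF1-shRNA arrays and between 0.000 and 0.074 in NC arrays. Of 11 leukocyte markers 1 fell (LYZ, -0.19, adjusted p = 0.0291), with list means from -0.059 to 0.004 in PCGF1-shRNA and from 0.010 to 0.018 in NC arrays. Of 10 platelet markers 1 fell (GP1BA, -0.17, adjusted p = 0.0297), with list means from -0.078 to 0.027 in PCGF1-shRNA and from 0.020 to 0.056 in NC arrays. The LYZ call was lost without any array other than PCGF1-shRNA replicate 1 (adjusted p 0.0679 to 0.088) and the GP1BA call without any of the 6 (adjusted p 0.0596 to 0.087). Both were also lost in the fits with the most variable probe set or a replicate block (adjusted p 0.0628 to 0.114). Without _s_at and _x_at probe sets LYZ was at -0.11 and did not pass (adjusted p = 0.259). None of 12 astroglial and glioma markers passed, with list means from -0.052 to 0.009 in PCGF1-shRNA and from 0.014 to 0.056 in NC arrays. Which markers are near background cannot be read from centred values. Every sample is labelled as U87, a cell line, so these lists describe signals within its cultures. No content of other cells is read from them, and whether the marker differences bear on THBD or F3 was not tested.

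**Figure D4:**
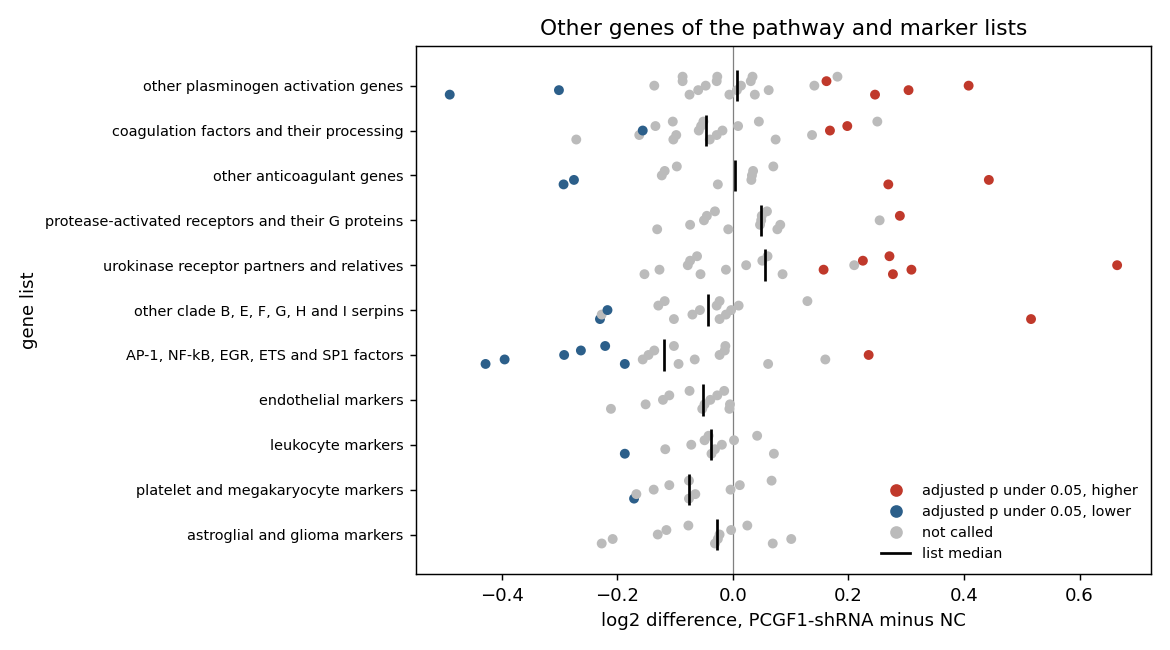
Log2 fold change, PCGF1-shRNA minus NC (horizontal axis), of every measured gene in the 7 pathway lists and 4 marker lists (rows), red where it rose and blue where it fell at an adjusted p under 0.05 and grey otherwise, with the list median as a black bar. LYPD1 at 0.67 and LRP8 at -0.49 are the outermost points, and the urokinase receptor partner list has 6 red points and no blue one.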

How the data were processed

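RNA of 6 samples was labelled as cRNA and hybridised to Affymetrix arrays. The authors deposited log2 signals made with RMA, per the submitters' processing notes, with no version given. The deposited log2 values had also been centred on the median of the 6 arrays for each probe set (largest departure 4.85e-07), a step no source describes. The log base is taken from RMA. Array medians lay between -0.00238 and 0.00399, and no further normalization was applied. Of 49395 probe sets 102 Affymetrix controls were left out. The annotation gave 1 gene symbol for 44988 of the rest, several for 1832 and none for 2473. Single-symbol probe sets were averaged into 18132 genes.

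PCGF1-shRNA was compared with NC with limma 3.58.1 under R 4.3.3 (a two-sided moderated test from lmFit and eBayes, without covariates). Benjamini-Hochberg adjustment covered all genes, with a threshold of 0.05. The fit was also run on simulated arrays with independent noise per gene. Those hold no shared array effects, so nothing about the calls is read from that run. SEs are limma's moderated ones, and the number of arrays limits the precision. The members, the lists and their use were chosen with earlier results of these data known. Named were all members, every called gene of the pathway lists up to 4 in each direction, a few further genes fixed by name, of which some are not analysed here, called markers, and the 3 genes most like the highest and the lowest member. For lists with more called genes, ITGB5, CAV1, NFKB1 and RELB were added after their values were seen. Chromosomes and promoters are from RefSeq. Alternatives were other probe set summaries, normalizations and weights, the replicate number as a block, and leaving out each array.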

Additional observations from a re-analysis of the deposited data

How the results depend on the processing

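Median centring of arrays, quantile normalization and array weights kept all 32 called genes of the pathway and marker lists called. Of these 32 genes 10 kept call and direction under all 12 alternatives in which they had a value. The other 22 did not under at least 1, 12 of them with the most variable probe set. Among those 12, VKORC1, ITGB5, NFKB1, RELB and GP1BA have 1 probe set each, so their values did not change. Their calls ended there only through moderation and adjustment over all genes. The listed genes that rose, 17 in all, numbered 10 to 13 when 1 array was left out and 11 without _s_at and _x_at probe sets, where fewer genes were measured. That last setting also moved the median difference of the system to 0.073, over 7 genes because TFPI2 dropped out, and turned ADTRP to 0.034. In the fit with replicate number as a block, 13 listed genes rose and 11 fell, and 2 members were called higher and 3 lower. The labels do not say whether equal numbers mark shared cultures or batches. Deviations of same-numbered arrays correlated at -0.042, -0.0511 and 0.0116 over genes, and arrays did not all correlate best with their own number. With so few arrays these correlations cannot settle whether the groups are paired. PCGF1 stayed lower and past the threshold under all alternatives. The cause of the changes was not tested. Absolute signal is not in the values, so filters on dim probe sets could not be tried.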
